A study of Solanum lycopersicum with 18 samples.

Results

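The ACC synthase family of tomato was followed through 4 genes, ACS2, ACS4, ACS6 and ACS1A, in the fruit wall of the ripening-inhibitor mutant rin and of wild type. The members were the probe sets listed by identifier for these genes, 1 for each, so 4 of 10101 probe sets other than controls. All 4 entered the tests, and the annotation named 4 further ACC synthase genes, which are described after them.

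ACC synthase makes 1-aminocyclopropane-1-carboxylate (ACC) from S-adenosylmethionine, and ACC oxidase turns ACC into ethylene, the hormone that drives ripening in climacteric fruits such as tomato. Unripe fruit makes a little ethylene by a route that ethylene itself holds down, called system 1, in which ACS6 and ACS1A are known to act. Ripening fruit makes much more by a route that ethylene stimulates, called system 2, in which ACS2 and ACS4 are known to act. The MADS-box factor RIN, which is defective in rin, is a known regulator of ripening genes, and rin fruit does not ripen normally.

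Affymetrix tomato arrays were run on RNA from fruit pericarp of the variety Pusa Ruby, with 3 arrays in each of 6 groups: rin at 35, 40 and 45 DAP and wild type at 35, 40 and 45 DAP (DAP stands for days after planting in the labels). The labels call these ages immature green, breaker and red-ripe in both genotypes. They number plants and biological replicates, but do not state that every array came from its own plant. A p-value here thus reflects how far these samples scatter, and some of that scatter may be technical. The titles also hold code numbers whose meaning is not given. Codes 8 and 9 recur in rin at 35, 40 and 45 DAP, and code 7 in wild type at the same ages. Whether the ages share plants is not known. No treatment of the fruit is given, and the general growth notes speak of seedlings and shoots, so the groups rest on the source descriptions of the samples.

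Each array gave 1 signal per probe set, in arbitrary units on a linear scale. A signal is called dim where it did not exceed the 30th percentile of its own array, which lay between 11.3 and 15.34, and array medians lay between 76.5 and 87.8. RIN was dim on all 9 rin arrays (5.106 to 9.273) and lay between 62.5 and 6929 on the 9 wild-type arrays. Markers of red-ripe and of green fruit wall followed the labels in wild type: polygalacturonase PG2 averaged 22818 at 45 DAP and 21.6 at 35 DAP, and the chlorophyll-binding protein gene CAB6A averaged 7.32 at 45 DAP and 1763 at 35 DAP. The 3 seed markers looked for had no probe set under those names. In 4 groups 1 array stood apart. Replicate 2 of rin at 35 DAP had a mean 3' to 5' log2 ratio of 1.65 over the actin, GAPDH and ubiquitin controls, against -0.15 to 0.64 on the other arrays. On the first principal component of all tested probe sets, replicate 1 of rin at 40 DAP lay at -7.36, against -55.0 and -54.0 for replicates 2 and 3, and replicate 1 of rin at 45 DAP lay at 16.0, against -8.36 and -9.47. Replicate 1 of wild type at 40 DAP lay at 74.5, against 49.9 and 53.2. Because these are bulk tissue samples, fewer cells of a type and less RNA per cell cannot be told apart in any value that follows.

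ACS2, a ripening-associated ACC synthase of system 2, was high only in wild type at 40 and 45 DAP among the 6 groups. In rin its signals were 4.661, 4.654 and 4.668 at 35 DAP, 6.065, 9.443 and 4.497 at 40 DAP, and 110.4, 7.816 and 7.48 at 45 DAP. In wild type they were 4.554, 5.32 and 4.545 at 35 DAP, 5718, 587.5 and 957 at 40 DAP, and 5245, 5031 and 2696 at 45 DAP. Of the 9 rin arrays, 1 exceeded the dim limit, replicate 1 at 45 DAP, while all 6 wild-type arrays at 40 and 45 DAP did and all 3 wild-type arrays at 35 DAP did not. The group means in rin were 4.66 ± 0.0074, 6.67 ± 2.53 and 41.9 ± 59.3 at 35, 40 and 45 DAP, and in wild type 4.81 ± 0.445, 2421 ± 2862 and 4324 ± 1414 (SD, n = 3 each). Ordered by mean, wild type at 45 DAP came first and wild type at 40 DAP second, with overlapping arrays. The 4 other groups followed, rin at 45 DAP, rin at 40 DAP, wild type at 35 DAP and rin at 35 DAP. Each of these overlapped its neighbour in the order, and all their arrays lay below the lowest of wild type at 40 DAP.

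ACS4, the other ACC synthase linked to system 2, was highest in the same 2 wild-type groups but was above the dim limit on most rin arrays. In rin its signals were 8.293, 24.96 and 157.5 at 35 DAP, 244.5, 29.28 and 24.91 at 40 DAP, and 1008, 379.8 and 394.4 at 45 DAP. In wild type they were 14.69, 6.398 and 39.29 at 35 DAP, 3812, 754.5 and 2243 at 40 DAP, and 4588, 3685 and 4990 at 45 DAP. At 45 DAP every rin array lay above every rin array of 35 and 40 DAP and below every wild-type array of 45 DAP. The means were 63.6 ± 81.8, 99.6 ± 126 and 594 ± 359 in rin at 35, 40 and 45 DAP, and 20.1 ± 17.1, 2270 ± 1529 and 4421 ± 668 in wild type (SD, n = 3 each). In order of the means, wild type at 45 DAP, wild type at 40 DAP and rin at 45 DAP each overlapped the next. A gap without overlap came below rin at 45 DAP, and then rin at 40 DAP, rin at 35 DAP and wild type at 35 DAP again overlapped in turn.

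ACS6, linked to system 1 in green fruit, ran the other way and was low only in wild type at 40 and 45 DAP. In rin its signals were 171.1, 456.4 and 200.6 at 35 DAP, 113.9, 262.1 and 145.6 at 40 DAP, and 113.2, 309.9 and 283.1 at 45 DAP. In wild type they were 296, 64.7 and 240.3 at 35 DAP, 9.38, 32.95 and 31.62 at 40 DAP, and 6.15, 21.44 and 9.639 at 45 DAP. No rin array was dim, while 1 wild-type array at 40 DAP and 2 at 45 DAP were. The means were 276 ± 157, 174 ± 78.1 and 235 ± 107 in rin at 35, 40 and 45 DAP, and 200 ± 121, 24.7 ± 13.2 and 12.4 ± 8.01 in wild type (SD, n = 3 each). Rin at 35 DAP, rin at 45 DAP, wild type at 35 DAP and rin at 40 DAP, in that order of means, overlapped one another. Wild type at 40 DAP lay wholly below these 4 groups and overlapped wild type at 45 DAP, the lowest.

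ACS1A, the second system 1 gene, was the least even of the 4 among replicates. In rin its signals were 10.24, 221.9 and 38.42 at 35 DAP, 26, 23.01 and 9.348 at 40 DAP, and 9.774, 196.1 and 205.4 at 45 DAP. In wild type they were 196.7, 8.323 and 79.28 at 35 DAP, 496.4, 291.9 and 292.9 at 40 DAP, and 137, 236.1 and 66.75 at 45 DAP. Wild type at 40 DAP lay above every other array, and 1 array was dim in each of the 3 rin groups and in wild type at 35 DAP. The means were 90.2 ± 115, 19.5 ± 8.88 and 137 ± 110 in rin at 35, 40 and 45 DAP, and 94.8 ± 95.1, 360 ± 118 and 147 ± 85.1 in wild type (SD, n = 3 each). Below wild type at 40 DAP, the order was wild type at 45 DAP, rin at 45 DAP, wild type at 35 DAP, rin at 35 DAP and rin at 40 DAP, and each of these overlapped its neighbour.

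**Figure D1:**
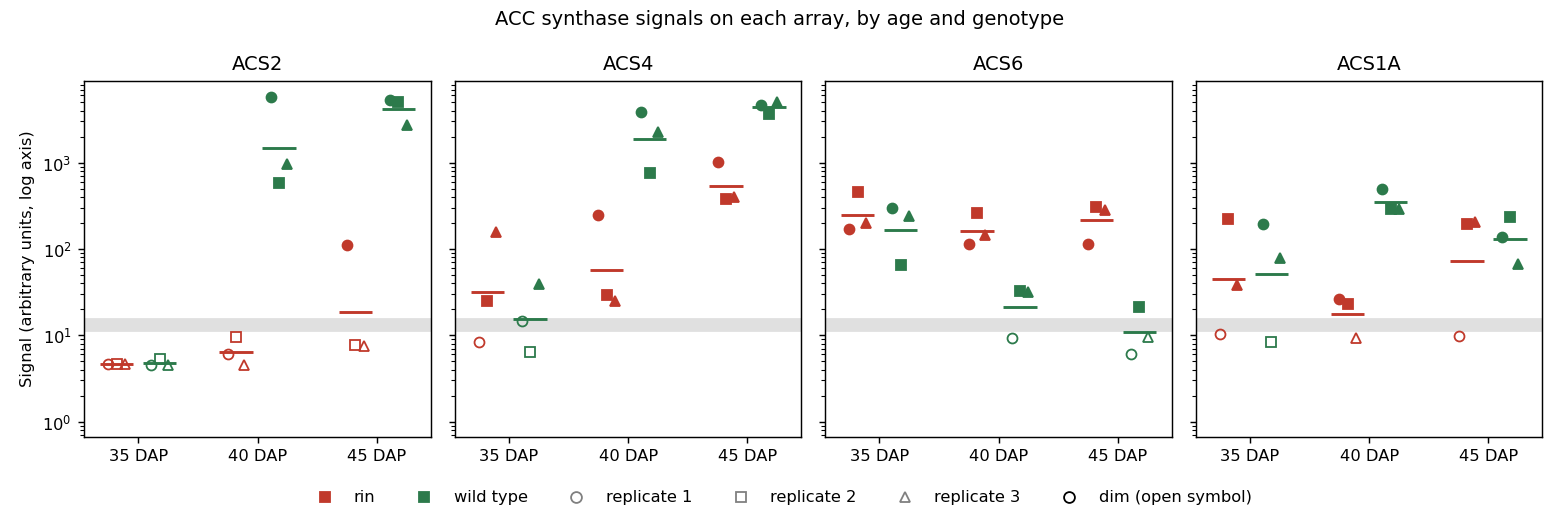
Signal of ACS2, ACS4, ACS6 and ACS1A on each array (arbitrary units, log axis) at 35, 40 and 45 DAP, rin in red left of wild type in green; the symbol gives the replicate, open symbols are dim, short lines are geometric means of 3 arrays, and the grey band spans the arrays' 30th percentiles (11.3 to 15.34). ACS2 and ACS4 were highest and ACS6 lowest in wild type at 40 and 45 DAP, and ACS1A was highest in wild type at 40 DAP.

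At 35 DAP none of the 4 genes was called between rin and wild type, where limma called 26 of 7717 probe sets, or 0.337%, at an adjusted p under 0.05. Without replicate 1 of rin at 35 DAP that count was 225 of 7703, still with no member among them. The log2 difference, rin minus wild type, was 1.05 for ACS4 (95% interval -1.15 to 3.25, adjusted p = 0.857) and 0.59 for ACS6 (-0.86 to 2.04, adjusted p = 0.886). For ACS1A it was -0.19 (-2.94 to 2.56, adjusted p = 0.987). ACS2 was dim on all 6 arrays, so it has no fold at this age. These intervals still hold changes of several fold for ACS4, ACS6 and ACS1A.

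At 40 DAP, the age labelled breaker, all 4 genes differed between the genotypes, against 25.9% of all probe sets tested. ACS2 was at least 102-fold lower in rin than in wild type (log2 difference -7.86, 95% interval -9.74 to -5.97, adjusted p = 3.01e-05). The fold is a bound because all 3 rin arrays were dim and were raised to their 30th percentile. ACS4 was 33.1-fold lower in rin (-5.05, -7.25 to -2.85, adjusted p = 0.00259), and ACS1A was at least 16.9-fold lower (-4.30, -7.05 to -1.55, adjusted p = 0.0236). ACS6 was the one member higher in rin, by at least 6.97-fold (2.93, 1.49 to 4.38, adjusted p = 0.00552). For each of the 4 genes the 3 rin arrays and the 3 wild-type arrays did not overlap. How many of all probe sets were without overlap was not counted. The median log2 difference of the 4 members was -4.67, against 0.068 for all tested probe sets.

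Some of these sizes rest on single arrays of 40 DAP. The bound for ACS2 was 51.8-fold without replicate 1 of wild type, which also stood apart on the first principal component, and 162-fold without replicate 2 of wild type. The ACS4 difference was 68.9-fold without replicate 1 of rin, another such array, 22-fold without replicate 3 of rin and 51.9-fold without replicate 2 of wild type. The ACS1A call was lost without replicate 3 of rin (adjusted p = 0.0905) and without replicate 1 of wild type (adjusted p = 0.0706), over a range of 0.00756 to 0.0905 for all alternatives run. Calls over all probe sets fell from 2002 to 1233 without that rin array and to 1565 without that wild-type array.

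At 45 DAP, the age labelled red-ripe, 3 of the 4 genes differed, against 28.2% of all probe sets tested. ACS2 was at least 143-fold lower in rin than in wild type (log2 difference -7.80, 95% interval -9.69 to -5.91, adjusted p = 1.61e-05), and the bound was 278-fold without replicate 1 of rin. ACS6 was at least 15.2-fold higher in rin (4.31, 2.87 to 5.76, adjusted p = 0.000272). ACS4 was 8.24-fold lower in rin (-3.04, -5.24 to -0.84, adjusted p = 0.0389). For these 3 genes the arrays of the genotypes did not overlap, and the share of all probe sets without overlap was again not counted. ACS1A was not called (-0.82, -3.57 to 1.93, adjusted p = 0.680), and its difference was 0.63 without replicate 1 of rin. The median over the 4 members was -1.93, against -0.12 for all tested probe sets.

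The ACS4 call at 45 DAP was the least firm of the 3. It was lost without replicate 2 or 3 of rin (adjusted p = 0.119 and 0.116) and without replicate 1, 2 or 3 of wild type (adjusted p = 0.0951, 0.0761 and 0.0876). It was also lost when replicates 2 and 3 of rin were averaged into 1 (adjusted p = 0.119). Calls over all probe sets, 2179 with all arrays, fell as well. They were 1475 and 1455 without replicate 2 or 3 of rin, 1491, 1627 and 1931 without replicate 1, 2 or 3 of wild type, and 1446 with the averaging. The call held in 23 of the 29 alternatives run, with an adjusted p from 0.00206 to 0.119. Over all of them the log2 difference lay between -3.50 and -2.80.

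Averaged over the 3 ages, ACS2 and ACS4 were lower in rin and ACS6 was higher, against 33.7% of all probe sets called. The log2 differences were -2.35 for ACS4 and 2.61 for ACS6. For ACS2, dim on 8 of 9 rin arrays, the difference was -4.64 with dim signals raised to their array's 30th percentile and -5.23 with the signals as deposited. ACS1A was not called (-1.77, adjusted p = 0.0811). It was called without replicate 2 of rin at 35 DAP (adjusted p = 0.0324), the array with the high 3' to 5' ratio, and without replicate 2 of wild type at 35 DAP (adjusted p = 0.0247).

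**Figure D2:**
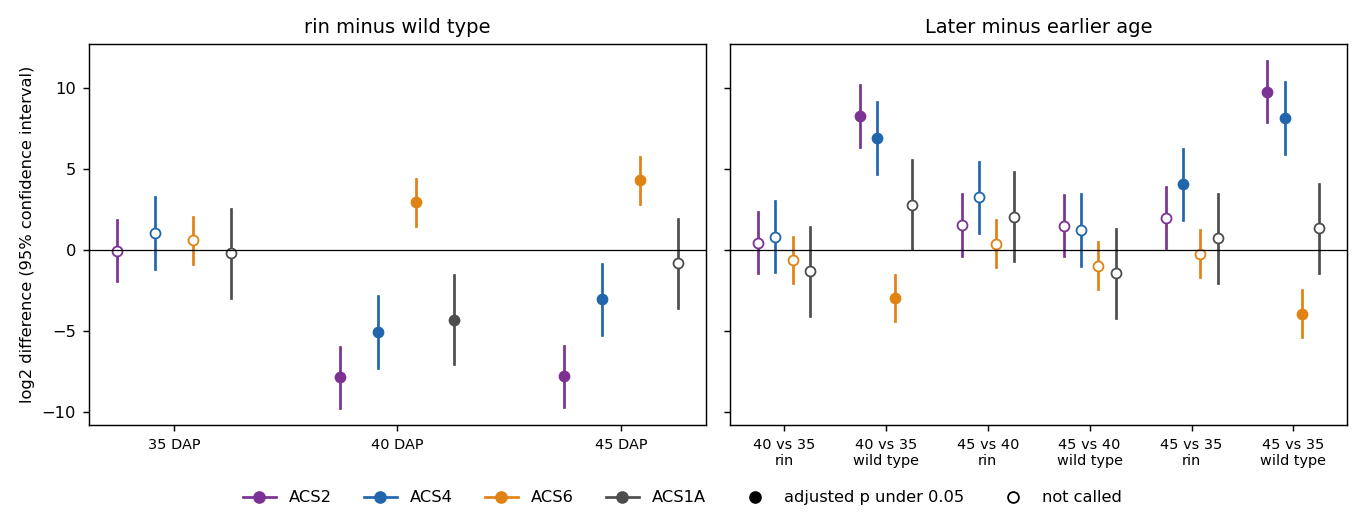
Log2 differences of the 4 genes with 95% confidence intervals from limma, rin minus wild type at each age (left) and later minus earlier age within each genotype (right); filled points have an adjusted p under 0.05. ACS2, ACS4 and ACS1A lay below 0 and ACS6 above 0 in the 40 DAP genotype comparison, and of the age steps ACS2, ACS4 and ACS6 were called in wild type at 40 and 45 against 35 DAP, and ACS4 in rin at 45 against 35 DAP.

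The change with age was examined within each genotype, and the comparisons of 40 and 45 DAP with 35 DAP share the same 35 DAP arrays. In wild type, ACS2 and ACS4 rose and ACS6 fell between 35 and 40 DAP, in a step where 30.9% of all probe sets were called. At 40 DAP ACS2 was at least 97.7-fold higher than at 35 DAP (log2 difference 8.27, 95% interval 6.38 to 10.2, adjusted p = 1.68e-05), and ACS4 at least 88.8-fold higher (6.91, 4.71 to 9.11, adjusted p = 0.00024). ACS6 was at least 7.11-fold lower (-2.96, -4.41 to -1.51, adjusted p = 0.00442). ACS1A had a difference of 2.78 (0.034 to 5.54) with arrays that did not overlap, but its adjusted p of 0.116 missed the threshold. As a bound this was 5.63-fold, against 2.79-fold without replicate 2 and 10.02-fold without replicate 1 of wild type at 35 DAP. Leaving out replicate 1 of wild type at 40 DAP gave an ACS2 bound of 49.6-fold. Leaving out replicate 2 of wild type at 40 DAP gave 155-fold for ACS2 and 139-fold for ACS4, and leaving out replicate 2 of wild type at 35 DAP gave 11.4-fold for ACS6.

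From 40 to 45 DAP in wild type no member was called, where 8.31% of all probe sets were. The log2 differences, 45 minus 40 DAP, were 1.49 for ACS2 (-0.40 to 3.38), 1.24 for ACS4 (-0.96 to 3.44), -0.98 for ACS6 (-2.43 to 0.46) and -1.43 for ACS1A (-4.18 to 1.32), with adjusted p of 0.348, 0.534, 0.433 and 0.572. Only for ACS1A did the arrays of the 2 ages not overlap. Over the whole span, wild type at 45 DAP against 35 DAP, 42.6% of all probe sets were called, and ACS2, ACS4 and ACS6 were among them. ACS2 was at least 274-fold higher (adjusted p = 1.02e-06), ACS4 at least 209-fold higher (adjusted p = 2.43e-05) and ACS6 at least 11.7-fold lower (adjusted p = 0.000322). The ACS6 bound was 18.8-fold without replicate 2 of wild type at 35 DAP. ACS1A was not called over that span (1.35, -1.40 to 4.10, adjusted p = 0.417). Its fold of at least 2.08 was 1.04 without replicate 2 and 3.71 without replicate 1 of wild type at 35 DAP.

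In rin, 2 of 7717 probe sets (0.0259%) were called between 35 and 40 DAP, and none of the 4 genes. This count rested on single arrays: it was 640 of 7703 without replicate 1 of rin at 35 DAP and 38 of 7704 without replicate 2 of rin at 40 DAP, and no member was called in either. The log2 differences, 40 minus 35 DAP, were 0.82 for ACS4, -0.62 for ACS6 and -1.32 for ACS1A, all with overlapping arrays, and ACS2 was dim on all 6 arrays. From 40 to 45 DAP 28 of 7717 probe sets (0.363%) were called, again with no member among them. That count was 292 of 7706 without replicate 1 of rin at 40 DAP, and 0 without replicate 2 or 3 of rin at 40 DAP, replicate 2 or 3 of rin at 45 DAP or replicate 1 of wild type at 45 DAP. ACS4 had the largest difference of the 4 (3.24, 95% interval 1.04 to 5.44, adjusted p = 0.202), with arrays that did not overlap. Without replicate 1 of rin at 40 DAP, which stood apart, this ACS4 difference was 4.30 with an adjusted p of 0.0284.

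Over the whole span in rin, 45 against 35 DAP, 11.3% of all probe sets were called, and ACS4 was the one member among them. It was at least 14.1-fold higher at 45 DAP (log2 difference 4.06, 95% interval 1.86 to 6.26, adjusted p = 0.024). The bound was 8.49-fold without replicate 1 and 28.8-fold without replicate 3 of rin at 35 DAP. The call was lost without replicate 2 of rin at 35 DAP (adjusted p = 0.0853), without replicate 1, 2 or 3 of rin at 45 DAP (0.0692, 0.0571 and 0.0581), with replicates 2 and 3 of 45 DAP averaged (0.0605) and in a fit of these 6 arrays alone (0.0761). Calls over all probe sets, 872 with all arrays, were 271, then 617, 306 and 301, then 292 and 394 in these fits, in the same order. The ACS4 difference stayed between 2.91 and 5.21 in all alternatives run. ACS2 did not pass (2.00, 0.11 to 3.88, adjusted p = 0.147), and without replicate 1 of rin at 45 DAP, its only array above the dim limit in rin, the difference was 0.71. ACS6 had a difference of -0.22 (-1.67 to 1.23), an interval that does not reach the -3.94 of wild type over the same span. ACS1A had a difference of 0.72 (-2.03 to 3.47).

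Whether the change with age differed between genotypes was tested directly by the interaction, the rin change minus the wild-type change. From 35 to 40 DAP it was called for ACS2 (-7.82, 95% interval -10.5 to -5.15, adjusted p = 0.00219; -6.57 with dim signals raised) and ACS4 (-6.10, adjusted p = 0.0178), against 9.37% of all probe sets. The ACS4 interaction was not called without replicate 3 of rin at 40 DAP (adjusted p = 0.053), or in a fit of the arrays compared alone (0.0621). Calls over all probe sets fell from 723 to 410 and 417 in these fits. The interaction was 2.34 for ACS6 (adjusted p = 0.133) and -4.11 for ACS1A (adjusted p = 0.169), neither of which passed. From 40 to 45 DAP no member was called, against 3.81% of all probe sets, with adjusted p between 0.321 and 0.987.

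From 35 to 45 DAP the interaction was called for ACS2 (-7.76, adjusted p = 0.00101; -7.06 with dim signals raised) and ACS6 (3.72, adjusted p = 0.0188), against 13.2% of all probe sets. The ACS6 interaction was not called without replicate 2 or 3 of rin at 45 DAP (adjusted p = 0.0529 and 0.0524), without replicate 1 of wild type at 35 DAP (0.0508) or without replicate 1 of wild type at 45 DAP (0.0554). Calls over all probe sets fell from 1018 to 688, 640, 768 and 684 in these fits. For ACS4 the interaction was -4.09 (adjusted p = 0.078), and it was called without replicate 1 of rin at 35 DAP (0.0241) and without replicate 1 of rin at 40 DAP (0.0486). The fall of ACS6 in wild type was larger than its change in rin over the whole span, while for ACS4 the difference between the 2 rises was not past the threshold.

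The replicates of the 4 genes were more spread than those of most probe sets. The residual standard deviation within groups was 1.19 log2 units for ACS2, 1.40 for ACS4, 0.90 for ACS6 and 1.76 for ACS1A, against a median of 0.41 over all tested probe sets. These stood at the 94.4th, 96.6th, 88.7th and 98.6th percentile of the tested probe sets. As deviations from the group mean over the 18 arrays, ACS6 and ACS1A went together (r = 0.68), ACS2 and ACS6 went in opposite directions (r = -0.52), and ACS2 and ACS4 were weakly alike (r = 0.33). These correlations describe 18 arrays, in which each set of 3 shares a group mean. ACS2 deviations in groups where all arrays were dim carry no order.

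The order of arrays within groups was also set beside the first principal component (52.3% of all variance), as a description with no test. The array highest on that component was the lowest for ACS6 in 5 of 6 groups, wild type at 35 DAP being the exception, and the highest for ACS4 in 4 of 6. In wild type at 45 DAP the ACS6 signals of replicates 1 and 3 (6.15 and 9.639) were both dim, so which was lowest carries no order. In rin at 35 DAP the array highest on the component was the lowest for ACS4 (8.293). Replicate 1 of rin at 45 DAP was the clearest case, with the highest ACS2 (110.4) and ACS4 (1008) and the lowest ACS6 (113.2) and ACS1A (9.774) of its group. The same array was highest in its group for the fruit-softening genes PG2 (5949) and EXP1 (1178), for the ethylene-responsive gene E8 (6775), for the phytoene synthase gene Psy1 (5816) and for the ripening regulator NOR (2362). Replicate 1 of rin at 40 DAP, the highest rin array of that age for ACS4, had 1910 for NOR, against 79.8 and 102.6 on replicates 2 and 3. Replicate 2 of rin at 35 DAP, with the high 3' to 5' ratio, was the highest of its group for ACS6 and ACS1A. The part of fruit stage or RNA quality in these deviations was not tested.

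**Figure D3:**
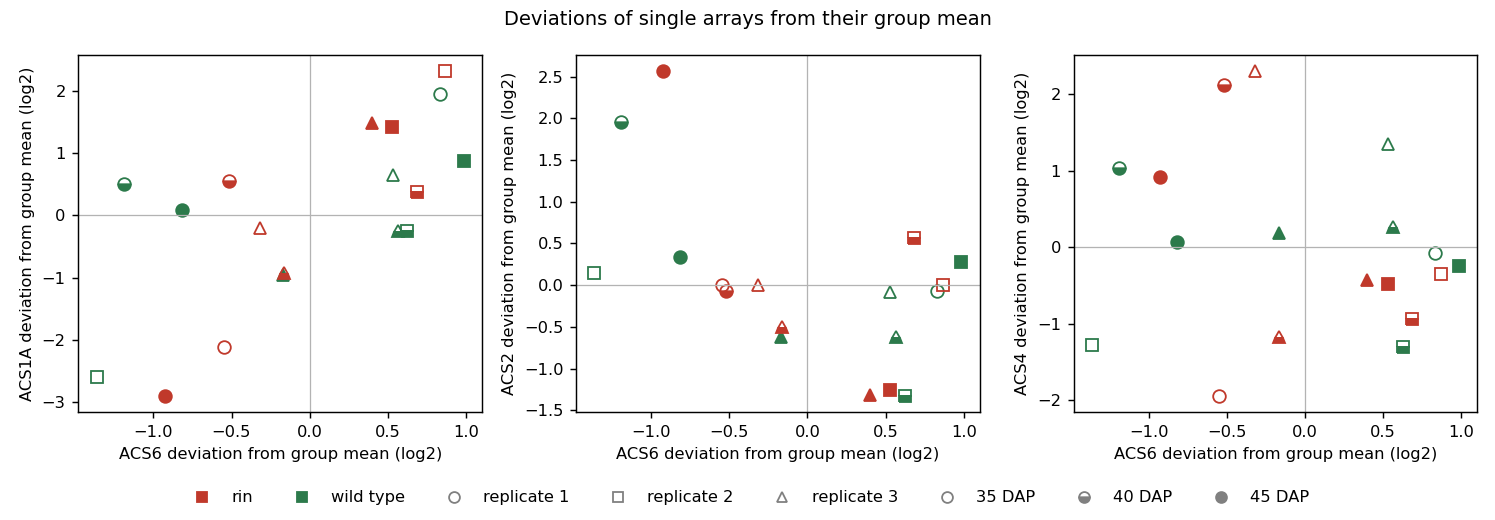
Deviation of each array from its group mean (log2 units) for ACS1A, ACS2 and ACS4 on the vertical axes against ACS6 on the horizontal axes, rin in red and wild type in green, with the replicate given by the symbol and the age by its filling. Over 18 arrays r with ACS6 was 0.68 for ACS1A, -0.52 for ACS2 and -0.17 for ACS4.

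Of the other ACC synthase genes on the array, ACS5 (3.62 to 4.20), ACS7 (4.70 to 5.97) and ACS8 (3.80 to 4.43) were dim on all 18 arrays. ACS3 was above its array's limit on 1 array, replicate 2 of rin at 35 DAP, with 18.7. None of the 4 passed the filter on low signals, and none was tested. The gene table lists ACS6 under the further name LE-ACS6, which it also gives to ACS8, so older uses of that name may mean either gene.

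Genes of ethylene synthesis other than ACC synthase, or of S-adenosylmethionine turnover, were examined from a list of 18 names, of which 6 had a probe set. These were SAM1 and SAM3, which make S-adenosylmethionine, SAHH, which recycles the by-product of its use in methylation, and the ACC oxidases ACO4, ACO5 and ACO6. At 35 DAP none of the 6 was called between the genotypes, against 0.337% of all probe sets. At 40 DAP the SAM1 signals were 5406, 9506 and 8600 in rin, against 2184, 2415 and 1859 in wild type, with no overlap. SAM1 was thus higher in rin at that age (log2 difference 1.83, adjusted p = 4.09e-05), SAHH was lower (-1.14, adjusted p = 0.00851), and 4 were not called. Of all probe sets 25.9% were called at that age. Without replicate 3 of rin at 40 DAP 1 of the 6 was called, against 1233 of 7700 probe sets. At 45 DAP 3 were higher in rin and none was lower, against 28.2% of all probe sets called. These were ACO6 (3.13, adjusted p = 0.000876), SAM3 (1.81, adjusted p = 0.0047) and SAM1 (0.74, adjusted p = 0.0182). The median difference of the 6 was -0.20, -0.43 and 0.50 at 35, 40 and 45 DAP, against -0.026, 0.068 and -0.12 over all tested probe sets.

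ACO6 at 45 DAP was the largest of these differences and was opposite in sign to those of ACS2 and ACS4. Its signals at 45 DAP were 4458, 4323 and 2968 in rin, against 222.6, 556.2 and 690.7 in wild type, and the groups did not overlap. The 2 other ACO6 probe sets gave differences of 4.31 and 4.87. In wild type ACO6 was lower at 45 than at 40 DAP (-2.83, adjusted p = 0.00615). In rin it was higher at 45 than at 35 DAP (2.11, adjusted p = 0.0307), and the interaction from 35 to 45 DAP was 3.49 (adjusted p = 0.00988). Over that span in rin 3 of the 6 genes were called, against 11.3% of all probe sets. Without replicate 2 of rin at 35 DAP 1 of the 6 was called, and the count over all probe sets was 271 of 7679, against 872 of 7717 with it. Between 35 and 40 DAP in wild type, SAHH (1.41) rose and SAM1 (-2.12) and SAM3 (-1.64) fell, in a step where 30.9% of all probe sets were called. ACO5 passed the threshold too (adjusted p = 0.0429), but it was dim on 15 of 18 arrays and on all 3 of wild type at 35 DAP, and its arrays of the 2 ages overlapped. Its wild-type signals at 40 DAP were 4.42, 54.4 and 52.5, at least 1.54-fold higher than at 35 DAP. For ACO6 the brightest probe set missed the threshold in that step (1.44, adjusted p = 0.0664), while its 2 others passed (adjusted p = 0.0282 and 0.043). The interaction from 35 to 40 DAP was called for SAM1 (1.88, adjusted p = 0.00219), against 9.37% of all probe sets.

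**Figure D4:**
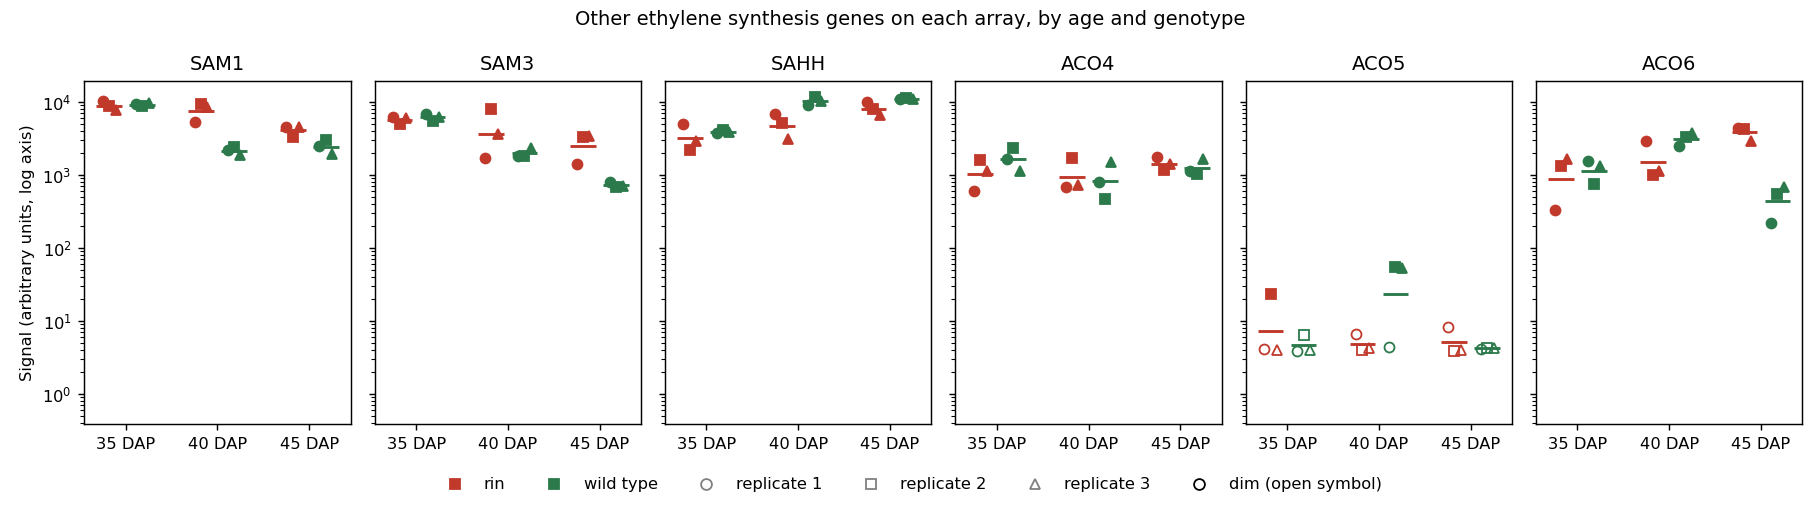
Signal of the 6 measured genes of ethylene synthesis other than ACC synthase, or of S-adenosylmethionine turnover, on each array (arbitrary units, log axis) at 35, 40 and 45 DAP, rin in red left of wild type in green, with geometric means as short lines and dim arrays as open symbols. At 45 DAP ACO6 lay between 2968 and 4458 in rin and between 222.6 and 690.7 in wild type, and SAM1 at 40 DAP was higher in rin.

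Ripening genes, among them the regulator NOR, gave a background for these values. Of 7 listed, 6 were measured (E8, TDR4, NOR, PG2, Psy1 and EXP1). Between genotypes at 35, 40 and 45 DAP, 0.337%, 25.9% and 28.2% of all probe sets were called. None of the 6 was called at 35 DAP. At that age arrays did not overlap for EXP1 (at least 16.8-fold lower in rin, adjusted p = 0.284) and E8 (4.93-fold lower, adjusted p = 0.487), and overlapped for the others. Lower in rin were 5 of the 6 at 40 DAP and 3 at 45 DAP, with none higher. Those at 45 DAP were EXP1 (-5.85, adjusted p = 0.00265), TDR4 (-3.69, adjusted p = 0.000961) and Psy1 (-2.38, adjusted p = 0.000341). PG2, at least 108-fold lower in rin at 40 DAP (adjusted p = 0.000702), was not called at 45 DAP (-2.37, adjusted p = 0.157). Its signals at 45 DAP were nevertheless apart, with 5949, 3906 and 3695 in rin and 22466, 20931 and 25059 in wild type. E8 was not called at 45 DAP either (-1.36, adjusted p = 0.282), again without overlap. NOR was not called (-0.51, adjusted p = 0.736), and its arrays overlapped. Of 6 green markers looked for, CAB4 and CAB6A were measured. Neither was called at 35 or 40 DAP, and at 45 DAP CAB6A was at least 44.9-fold higher in rin (adjusted p = 0.00035), where it was dim on all 3 wild-type arrays. ACS6 was higher in rin at 45 DAP, and also at 40 DAP, where the differences were -0.37 for CAB6A and -1.58 for CAB4. The part of greenness in the ACS6 difference was not tested.

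The named genes most like each member were taken by Pearson's r of log2 signal over the 18 arrays, which share their groups, so that any gene that followed ripening scores high. Of 7716 other probe sets, 194 had an r above 0.9 with ACS2, 98 with ACS4, 52 with ACS6 and 5 with ACS1A. For ACS2 the closest were hdc, a histidine decarboxylase gene (r = 0.98), a second probe set of Psy1, above the dim limit only on the 6 wild-type arrays of 40 and 45 DAP (0.97), the uncoupling protein gene UCP (0.96), ZDS, a carotenoid desaturase gene (0.96), and CCS (0.95). The least like were EXP5, an expansin gene (-0.97), OPR3 of jasmonate synthesis (-0.95) and the MADS-box gene TDR6 (-0.95). For ACS4 the closest were the lipoxygenase genes TomloxE (0.95) and loxC (0.95), BCCP1 of fatty acid synthesis (0.94), LOC544279, listed with the synonym ETR3 (0.94), and DIG3 (0.94). The least like were CDKA1, a cyclin-dependent kinase gene, SAM1, and ARG2, an arginase gene, each at -0.93.

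For ACS6 the closest were EXP5 (0.92), the ethylene response factor gene PTI6 (0.92), kdsA (0.92), THM6, a MYB gene (0.91), and Wfi1, an NADPH oxidase gene (0.91). The least like were the MADS-box gene TDR4 (-0.93), the same Psy1 probe set (-0.93) and ACS2 itself (-0.92). EXP5 was thus at the far end from ACS2 and at the near end to ACS6. For ACS1A no named gene passed 0.9, and the closest were WRKYIId-1 (0.82), the Aux/IAA gene IAA3 (0.80), Asc-1 (0.79), NAC1 (0.77) and LOC543701 (0.77). Its least like were LOC543830 (-0.75), MAPK10 (-0.68) and tVPS41 (-0.68). Among the members, r over the 18 arrays was 0.87 between ACS2 and ACS4, -0.92 between ACS2 and ACS6, -0.75 between ACS4 and ACS6, and -0.27 between ACS6 and ACS1A.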

How the data were processed

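The authors deposited linear intensity values, 1 for each probe set on each array. Per the submitters' processing notes they came from GCOS, with neither version nor scaling target stated. Array medians differed little (76.5 to 87.8), and log2 of the deposited values was used as it stood. From 10209 probe sets 108 controls were removed, as were 2384 that exceeded their own array's 30th percentile on fewer than 3 of 18 arrays, which left 7717. One limma model (version 3.58.1, R 4.3.3) with 6 group means and a trended eBayes spread was fitted to all of them. Tests were two-sided, adjusted by Benjamini-Hochberg within each comparison, and called at an adjusted p under 0.05. The script was tested on simulated data. Folds are ratios of geometric means, and where arrays of the dimmer group were dim, their signals were raised to that percentile and the fold is given as "at least".

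Names came from the platform's annotation (909 probe sets with 1 symbol, 9192 unnamed), of which 885 were matched to RefSeq assembly SLM_r2.1. The brightest probe set represented a gene, except in the likeness search, which ranked probe sets. The members and lists were chosen with earlier results of these data known. The 4 members and any other ACC synthase were always named. From the list of ethylene synthesis and S-adenosylmethionine turnover at most 3 called genes with the smallest adjusted p were to be named per comparison. ACO5 was added after its values were seen. Likeness names the 5 probe sets with the highest r and the 3 with the lowest. The replicate numbers were not taken as pairs: in 1 of 15 pairs of groups did every same-numbered pair deviate together (correlation over 0.1), and correlations ran from -0.50 to 0.48. The number of arrays, 3 a group, limits the precision. Leaving out each array, other scalings, filters and pseudocounts were tried as alternatives.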

Additional observations from a re-analysis of the deposited data

Results flagged for a closer look

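For 4 results the change with age differed between rin and wild type by the interaction in limma, given as the rin change minus the wild-type change in log2 units. From 35 to 40 DAP these were ACS2 (-7.82, adjusted p = 0.00219) and ACS4 (-6.10, adjusted p = 0.0178). From 35 to 45 DAP they were ACS2 (-7.76, adjusted p = 0.00101) and ACS6 (3.72, adjusted p = 0.0188). ACS2 was dim in both genotypes at 35 DAP and on 5 of 6 rin arrays at 40 and 45 DAP, so its interactions rest on the wild-type arrays of 40 and 45 DAP. No array of the 4 genes was tested as an outlier, since each group holds 3.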

How the results depend on the processing

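Of 1504 recomputed values of the 4 genes, 1452 kept their direction and their side of the threshold, 22 were no longer called, 6 became called and 24 changed sign, none of the last being a called value. The cause was not tested. Count and sign changes under other settings were as follows. In the fit of the arrays compared alone, 0 members were called for 45 against 35 DAP in rin and 1 for the interaction from 35 to 40 DAP. Over all probe sets these calls fell from 872 to 394 and from 723 to 417. With replicates 2 and 3 of rin at 45 DAP averaged, 0 members were called for 45 against 35 DAP in rin and 1 for the interaction from 35 to 45 DAP. Over all probe sets these calls fell from 872 to 292 and from 1018 to 665. The ACS1A difference in rin from 35 to 45 DAP was -0.0024 in that setting. With median centring ACS2 at 35 DAP, dim in both genotypes, differed by 0.00604. The ACS2 interaction from 40 to 45 DAP was -0.80 with 32 added to each signal and -0.48 with dim signals raised. With 32 added, the ACS6 interaction from 35 to 45 DAP was 2.04 (adjusted p = 0.0545) and that of ACS4 was -3.55 (adjusted p = 0.0272). Leaving out 1 array at a time gave these ranges of the rin minus wild type difference at 35 DAP: ACS2 -0.079 to 0.035, ACS4 -0.10 to 2.02, ACS6 -0.092 to 1.00 and ACS1A -1.49 to 0.87. At 45 DAP ACS1A ranged from -1.56 to 0.63. In rin, ACS4 ranged from -0.24 to 1.97 for 40 against 35 DAP, and for 45 against 35 DAP ACS6 ranged from -0.49 to 0.24 and ACS1A from -0.33 to 2.18. The number of members called ranged from 0 to 1 for 45 against 40 DAP and for 45 against 35 DAP in rin, from 1 to 2 for the interaction from 35 to 40 DAP and from 1 to 3 for that from 35 to 45 DAP. Over all probe sets the calls of these 4 comparisons ranged from 0 to 292, 271 to 1752, 410 to 1122 and 640 to 1386. The ACS2 interaction from 40 to 45 DAP ranged from -1.22 to 0.72, and that of ACS1A from 35 to 45 DAP from -1.69 to 0.83. With the replicate block, ACS4 at 45 DAP had an adjusted p of 0.0345 and ACS1A at 40 DAP of 0.0341, and no count of called members changed; the numbers are not known to pair the samples. With the codes in the titles as a random block the correlation within a code was -0.024. With Spearman's rho, 1, 1, 2 and 2 of the 5 genes most like ACS2, ACS4, ACS6 and ACS1A were again among the closest 5. The called genes of the list of ethylene synthesis and S-adenosylmethionine turnover numbered 1 in place of 2 for the interaction from 35 to 45 DAP without any 1 of 13 arrays. With all arrays 13.2% of all probe sets were called for that interaction.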
